A study of Homo sapiens with 13 samples.

Results

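The comparison set HepG2S1 cells grown for 72 h with 6 µM sorafenib at 2% O2 against HepG2S1 cells withdrawn from sorafenib and grown for 72 h at 20% O2. HepG2S1 is a line made from HepG2, a human hepatoblastoma line, by months of culture in slowly rising sorafenib and was then always kept in the drug. Sorafenib inhibits RAF kinases and several receptor tyrosine kinases and is used against liver cancer. The arrays were assigned to the groups by the labels alone: 3 arrays of sorafenib at 2% O2 and 3 arrays of withdrawn cells, 6 of the 13 arrays of the series, over all 18377 genes with 1 gene symbol. The other arrays held HepG2S1 cells with 6 µM sorafenib at 20% O2 (n = 4) and untreated HepG2 cells at 20% O2 (n = 3), which shared no array with the comparison. All flasks had the same serum-containing medium with insulin and dexamethasone.

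Both the oxygen level and the drug differed between the compared groups, so that their parts in any difference cannot be told apart in this comparison. The level in the group with sorafenib at 20% O2 is therefore given beside the genes that the results turn on, as mean ± SD (n = 4) with no test. Each sample was 1 flask, and the labels do not record whether flasks came from separate cultures, so the p-values cover only the variation from flask to flask. HepG2S1 is 1 derived line, and its liver identity was low on these arrays. ALB, the main plasma protein made by hepatocytes, lay at 5.03 ± 0.05 against 5.11 ± 0.03 (SD, n = 3 each) and AFP, a fetal liver protein, at 4.80 ± 0.11 against 4.65 ± 0.14, below the lower quartile of all values (5.76), whereas HepG2 cells had 12.79 ± 0.14 and 13.45 ± 0.10. All levels are on the log2 scale of the deposited values, and every log2 fold change is 2% O2 with sorafenib minus withdrawn. Where values of single flasks or group means are set against each other, those of 2% O2 with sorafenib come before those of withdrawn cells. Signed values in parentheses are log2 fold changes, with their SE from the fit where given.

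In cells with enough oxygen, prolyl hydroxylases mark the HIF alpha subunits for destruction by the VHL complex. When oxygen is scarce the subunits escape, pair with ARNT and raise genes of glucose uptake, glycolysis, pH control and vessel growth. ATF4 is a transcription factor whose translation increases when kinases sense amino acid shortage, unfolded protein or other stress, and it drives genes of amino acid synthesis and transfer RNA charging. Entry into S phase depends on D-type and E-type cyclins and on E2F factors, which raise the genes of the replication machinery.

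The arrays of the 2 groups were clearly apart. Array medians of the series lay between 7.30 and 7.42, and the number of arrays limits the precision. Across all rows, correlations were 0.997 to 0.998 within either group and 0.993 to 0.995 between them. The leading principal component of the 6 arrays held 65.5% of the variance and separated the groups, with 2% O2 replicate 3 nearest to the withdrawn arrays. Of the 18377 genes, 3412 (18.6%) passed at an adjusted p under 0.05 in limma, here named called. Of these, 1992 genes (10.8%) were higher at 2% O2 with sorafenib and 1420 (7.73%) were lower. The balance moved with the scaling: 58.4% of the called genes were higher here, but 48.4% were (1689 higher, 1802 lower) when each array was scaled to its 75th percentile. The counts of higher and lower members of each gene list stand against these shares of 10.8% and 7.73%. The comparison and the lists were chosen with earlier results of these data known, so that such counts describe the lists and are not independent evidence. Changes of 2-fold or more were mostly upward, with 59 genes (0.321%) higher and 8 (0.0435%) lower. In 3457 genes (18.8%) all 3 arrays of 2% O2 with sorafenib lay above the 3 withdrawn arrays, and in 3521 (19.2%) all lay below. The median log2 fold change over all genes was -0.03.

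**Figure D1:**
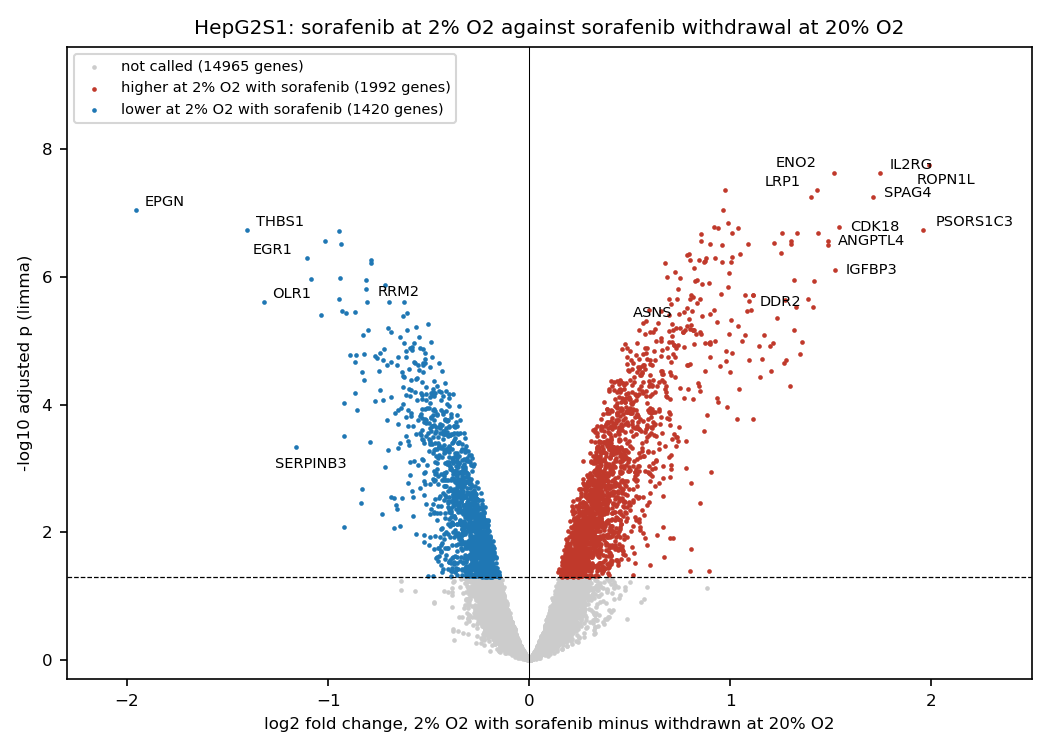
Each point is 1 of 18377 genes, with the log2 fold change (2% O2 with sorafenib minus withdrawn at 20% O2) on the x axis and -log10 of the limma adjusted p on the y axis; the dashed line marks an adjusted p of 0.05. The points beyond 1 are far more numerous on the right (59 called genes) than beyond -1 on the left (8 called genes).

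Under the naming rule given with the processing, which left out unnamed loci, the largest rises brought together known hypoxia genes and genes of other classes. ROPN1L, a sperm flagellum protein of the radial spoke type, was at 9.62, 9.43 and 9.44 in the 3 flasks of 2% O2 with sorafenib and at 7.58, 7.42 and 7.52 in the withdrawn flasks. The difference was 3.97-fold (1.99 ± 0.09 SE, limma adjusted p = 1.76e-08), while the drug at 20% O2 gave 7.40 ± 0.12 (SD, n = 4). PSORS1C3, a non-coding RNA gene near HLA-C, measured 9.72, 10.00 and 9.52 against 7.70, 8.03 and 7.63 (1.96 ± 0.12 SE, limma adjusted p = 1.85e-07), and the drug at 20% O2 gave 7.08 ± 0.13. Its 2 rows on the array gave an identical log2 fold change (1.959), so the second row is not counted as separate support. IL2RG, the common gamma chain of interleukin receptors, measured 10.02, 9.94 and 9.71 against 8.22, 8.11 and 8.12 (1.74 ± 0.08 SE, limma adjusted p = 2.4e-08). Its level with the drug at 20% O2, 8.30 ± 0.08, lay close to the withdrawn flasks. The naming rule took only genes without overlap between the compared groups. Over all genes, 18.8% had all 3 low-oxygen arrays above the withdrawn arrays. In these 3 genes the low-oxygen flasks also lay above the flasks with the drug at 20% O2.

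CDK18, a cyclin-dependent kinase of the PCTAIRE family, was at 9.75, 9.84 and 9.63 with the drug at 2% O2 and at 8.09, 8.23 and 8.27 after withdrawal (1.54 ± 0.09 SE, limma adjusted p = 1.65e-07). CCL28, a mucosal chemokine, was at 9.57, 9.69 and 9.37 against 8.10, 8.10 and 7.99 (1.49 ± 0.10 SE, limma adjusted p = 2.73e-07). LRP1, a large endocytic receptor of the LDL receptor family, was at 10.93, 11.07 and 10.75 against 9.58, 9.46 and 9.43 (1.43 ± 0.07 SE, limma adjusted p = 4.38e-08). The flasks with the drug at 20% O2 had 8.28 ± 0.13 for CDK18, 7.68 ± 0.14 for CCL28 and 9.66 ± 0.04 for LRP1, all nearer to the withdrawn cells. The other 6 of the 12 largest rises, SPAG4, IGFBP3, ENO2, ANGPTL4, PPP1R3C and PFKFB4, belong to gene groups described further on.

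EPGN (epigen), a ligand of the EGF receptor, had the largest fall under the same naming rule. It measured 7.04, 6.83 and 6.69 at 2% O2 with sorafenib and 8.64, 8.83 and 8.96 after withdrawal (-1.95 ± 0.11 SE, limma adjusted p = 9.08e-08). With the drug at 20% O2 it lay at 7.22 ± 0.07, near the other flasks that had the drug. THBS1 (thrombospondin 1), an extracellular matrix protein that restrains vessel growth, measured 10.09, 10.14 and 10.45 against 11.64, 11.62 and 11.63 (-1.40 ± 0.09 SE, limma adjusted p = 1.85e-07), with 10.36 ± 0.11 under the drug at 20% O2. OLR1, a receptor for oxidised LDL, measured 7.92, 8.34 and 8.44 against 9.61, 9.57 and 9.46 (-1.32 ± 0.11 SE, limma adjusted p = 2.48e-06), with 8.12 ± 0.09 under the drug at 20% O2. The withdrawn flasks lay above those of 2% O2 by the naming rule, as they did in 19.2% of all genes. For these 3 genes they also lay above all flasks with the drug at 20% O2.

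SERPINB3, a clade B serpin also known as squamous cell carcinoma antigen, fell by 1.16 ± 0.19 (SE), with limma adjusted p = 0.000463. It varied more between flasks than the other large falls, from 6.44 to 7.12 at 2% O2 with sorafenib and from 7.56 to 8.26 after withdrawal. MYPN, a sarcomere protein, fell by 1.03 ± 0.09 (SE) and KRT5, a basal keratin, fell by 0.94 ± 0.06. DKK1, a secreted inhibitor of WNT signalling, fell by 0.94 ± 0.07, from 12.66 to 11.72. RRS1, a ribosome assembly factor, fell by 1.01 ± 0.07. MYPN, KRT5, DKK1 and RRS1 had limma adjusted p of 3.94e-06, 3.07e-07, 1.03e-06 and 2.73e-07. GPATCH4 was lower in its brighter row (-0.95) and higher in its other row (0.52), so that its direction is uncertain. EGR1, EREG and CCN1 complete the 12 largest falls and are described with their groups.

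**Figure D2:**
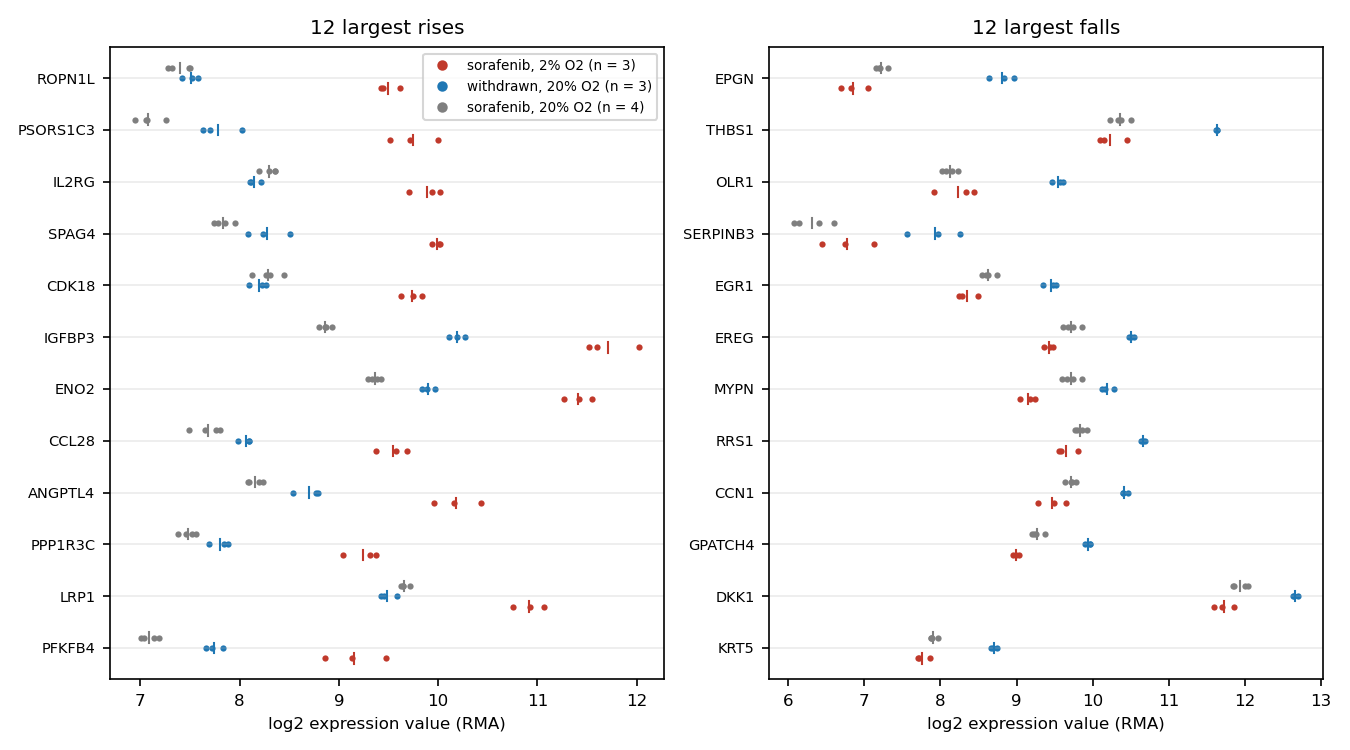
Log2 expression values of the 12 largest rises (left) and 12 largest falls (right), with 1 point per flask and a bar at each group mean, for sorafenib at 2% O2, withdrawn at 20% O2 and sorafenib at 20% O2. In the rises the low-oxygen flasks stand to the right of both groups at 20% O2. In the falls the withdrawn flasks stand to the right of both groups with the drug. The genes were chosen to have no overlap between the compared groups.

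HIF target genes were higher as a group. Of 41 measured members of this list, 37 were called higher (90.2%, against 10.8% of all genes) and 0 lower, with a median log2 fold change of 0.83. The median level over the list was 10.55 at 2% O2 with sorafenib, 9.70 after withdrawal and 9.23 with the drug at 20% O2. The 4 members not called were PFKFB3, NRN1, RIOX1 and TXNIP. The count of 0 lower rose to 2 without 2% O2 replicate 3. It was also 2 with the filter on low values, 75th percentile scaling, repeated quantile normalization or array weights. With the 2 groups alone or with trend and robust moderation it was 1. NRN1 lay near the lower quartile of all values, at 5.85, 5.88 and 5.87 against 5.83, 5.84 and 6.05. The list is made of genes that many studies found raised in hypoxia. CA9 is not analysed here.

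Promoters of 4 of these genes and of 2 ATF4 genes are shown because they hold the letters of the short motif known for the respective factor. Each is the 250 bases before the transcription start in the RefSeq promoter table of GRCh38.p14, written 5′ to 3′ on the gene's strand. Capitals in the HIF target genes mark ACGTG or GCGTG, the core of the HIF response element, searched on both strands (the reverse complements are CACGT and CACGC). ANGPTL4 is on the plus strand at chr19:8363905-8364154, PFKFB4 on the minus strand at chr3:48556804-48557053, PPFIA4 on the plus strand at chr1:203026241-203026490 and ADM on the plus strand at chr11:10304823-10305072.
ANGPTL4: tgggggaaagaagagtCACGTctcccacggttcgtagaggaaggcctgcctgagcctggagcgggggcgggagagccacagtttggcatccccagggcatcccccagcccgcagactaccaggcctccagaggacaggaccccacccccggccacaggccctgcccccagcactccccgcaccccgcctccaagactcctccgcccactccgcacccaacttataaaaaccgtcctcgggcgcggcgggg
PFKFB4: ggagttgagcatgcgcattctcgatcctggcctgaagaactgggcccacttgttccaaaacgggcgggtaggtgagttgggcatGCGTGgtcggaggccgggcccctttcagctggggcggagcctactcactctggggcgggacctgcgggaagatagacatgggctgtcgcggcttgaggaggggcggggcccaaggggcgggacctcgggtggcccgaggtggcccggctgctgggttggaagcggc
PPFIA4: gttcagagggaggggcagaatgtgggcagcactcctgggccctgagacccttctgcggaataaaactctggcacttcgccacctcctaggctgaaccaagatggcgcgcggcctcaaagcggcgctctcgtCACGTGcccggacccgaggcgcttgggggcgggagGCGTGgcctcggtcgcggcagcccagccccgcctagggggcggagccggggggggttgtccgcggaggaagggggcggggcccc
ADM: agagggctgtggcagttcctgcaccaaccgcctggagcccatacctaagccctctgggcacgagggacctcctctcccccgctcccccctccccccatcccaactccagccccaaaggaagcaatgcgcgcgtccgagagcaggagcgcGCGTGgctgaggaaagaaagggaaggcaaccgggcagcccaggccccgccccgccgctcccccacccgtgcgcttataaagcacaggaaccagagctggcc
The match began 234 bases before the start in ANGPTL4, 166 in PFKFB4 and 101 in ADM. PPFIA4 held matches at 119, 118 and 84 bases, of which the 119 and 118 matches overlap on the 2 strands. A match is a description of the letters and not a measured binding site. The motif is short and common: 49.7% of 20069 promoters of this length held it, and 57.7% of the 14210 tested genes with a promoter in the table. Of the 37 called HIF target genes, 28 had a promoter in the table and 23 of these held the motif (82.1%). Of the 17 ATF4 list members called higher that had a promoter in the table, described further on, 13 held the same motif (76.5%). The share was 66.6% among all genes called higher and 63.0% among all genes called lower.

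The HIF targets with the largest differences were spread over several functions. SPAG4, a nuclear envelope protein, measured 10.02, 10.01 and 9.93 at 2% O2 with sorafenib and 8.51, 8.23 and 8.08 after withdrawal (1.71 ± 0.09 SE, limma adjusted p = 5.68e-08). ANGPTL4, a secreted inhibitor of lipoprotein lipase, measured 10.16, 10.43 and 9.95 against 8.79, 8.54 and 8.77 (1.48 ± 0.10 SE, limma adjusted p = 3.17e-07). TMEM45A, a membrane protein, measured 10.92, 10.93 and 10.88 against 9.53, 9.52 and 9.46 (1.40 ± 0.08 SE, limma adjusted p = 5.68e-08). In these 3 genes the drug at 20% O2 gave levels below the withdrawn flasks (7.83 ± 0.10, 8.15 ± 0.08 and 9.07 ± 0.11, in the same order). PPFIA4, a liprin scaffold protein, measured 8.23, 8.75 and 8.36 against 7.09, 7.09 and 7.18 (1.33 ± 0.12 SE, limma adjusted p = 2.96e-06). INSIG2, a sterol sensor of the endoplasmic reticulum, measured 9.62, 9.96 and 9.33 against 8.50, 8.41 and 8.16 (1.28 ± 0.14 SE, limma adjusted p = 2e-05). The BCL2-related mitophagy receptors BNIP3 (0.85) and BNIP3L (0.74) and the stress gene NDRG1 (0.80) were called higher by log2 values near 0.8, with limma adjusted p of 2.73e-07, 1.57e-06 and 4.33e-07.

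**Figure D3:**
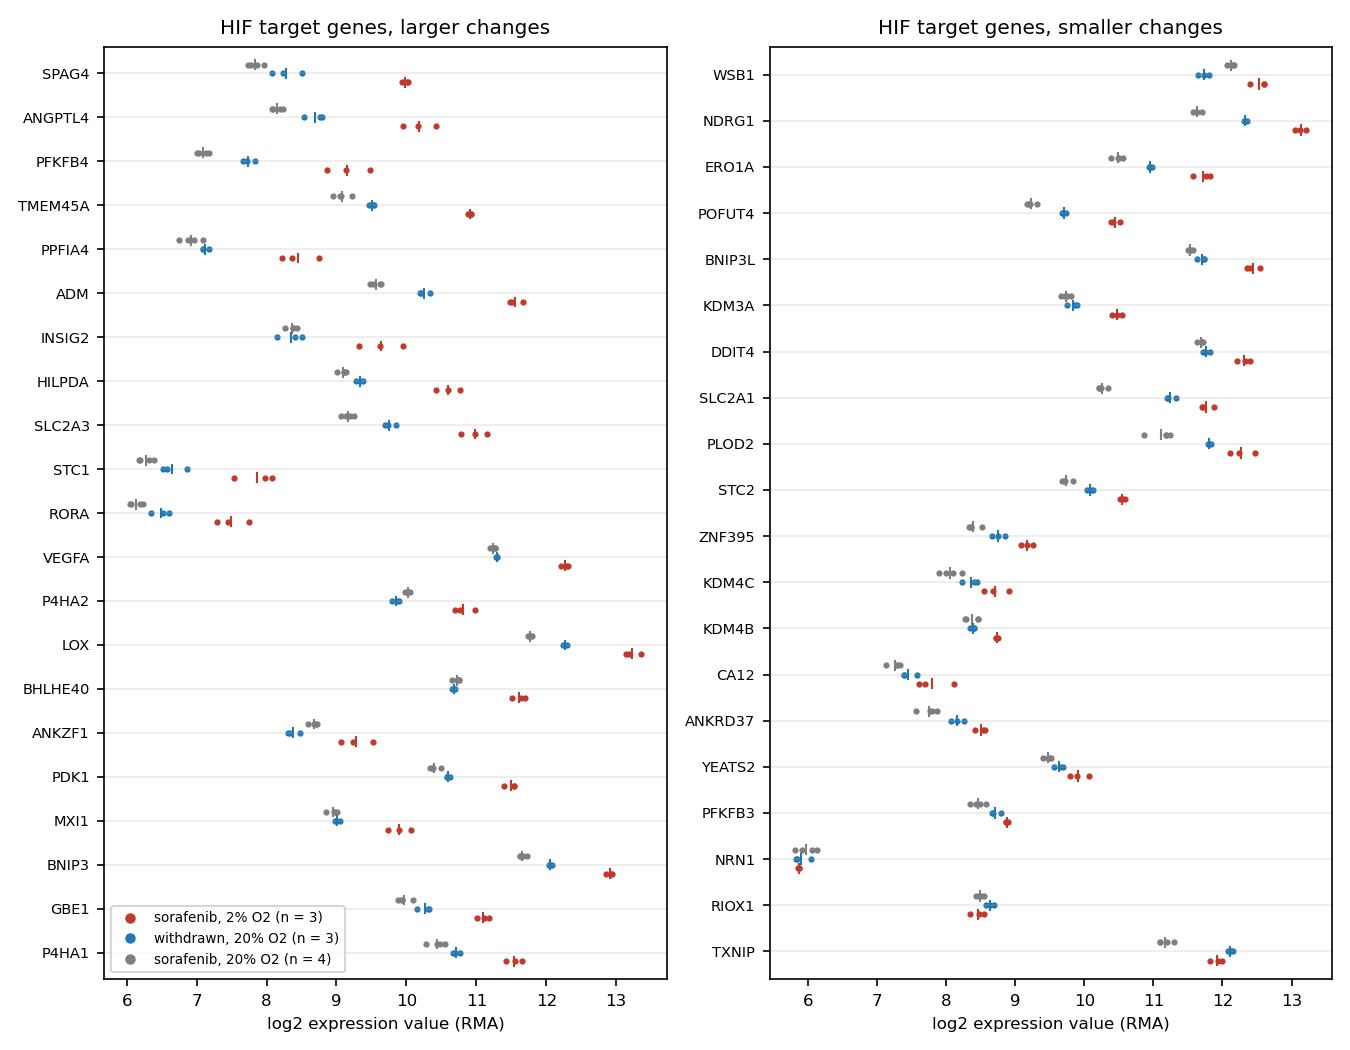
Log2 expression values of the 41 measured HIF target genes, ordered by log2 fold change, with 1 point per flask and a bar at each group mean. For nearly all genes the 3 low-oxygen flasks lie to the right, and NRN1, RIOX1 and TXNIP at the bottom right do not.

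Of 12 HIF subunits and oxygen sensors, 2 were called higher and 0 lower (16.7% called, near the 18.6% of all genes). With array weights 5 were higher and 1 lower, and 1 was lower with trend and robust moderation, the filter or 75th percentile scaling. EGLN3, a prolyl hydroxylase that is itself a HIF target, measured 9.43, 9.50 and 8.88 at 2% O2 with sorafenib and 7.88, 8.08 and 7.97 after withdrawal (1.30 ± 0.16 SE, limma adjusted p = 5.07e-05), and 2% O2 replicate 3 was the lowest of its group. EGLN1, the main prolyl hydroxylase, was higher by 0.26 ± 0.06 (SE; limma adjusted p = 0.00778). Messenger RNA of the HIF subunits was not called. HIF1A was at 12.61 ± 0.09 against 12.73 ± 0.04 (log2 fold change -0.12, limma adjusted p = 0.328), EPAS1 differed by -0.14 (adjusted p = 0.067) and ARNT lay at 11.02 ± 0.06 against 10.88 ± 0.06 (adjusted p = 0.0785). VHL was at 9.20 ± 0.06 against 9.19 ± 0.05 (adjusted p = 0.953). The arrays measure RNA, and HIF alpha is controlled mostly through protein stability.

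The HIF target list held the glucose transporters SLC2A3 and SLC2A1. SLC2A3 (GLUT3) measured 10.99, 11.16 and 10.78 against 9.74, 9.85 and 9.69 (1.22 ± 0.08 SE, limma adjusted p = 2.94e-07). SLC2A1 (GLUT1) measured 11.70, 11.87 and 11.72 against 11.32, 11.22 and 11.19 (0.52 ± 0.06 SE, limma adjusted p = 3.69e-05). Of 16 glycolysis enzymes, 9 were called higher (56.2%, against 10.8% of all genes) and 1 lower (6.25%, against 7.73%), with a median of 0.18. ENO2 (neuron-type enolase) measured 11.42, 11.55 and 11.26 against 9.97, 9.89 and 9.84 (1.51 ± 0.07 SE, limma adjusted p = 2.4e-08), and ALDOC (brain-type aldolase) was higher by 1.01 ± 0.09 (SE). HK2, the inducible hexokinase, was higher by 0.83 ± 0.07. ALDOC and HK2 had limma adjusted p of 4.73e-06 and 1.12e-06.

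Several abundant enzymes of the same pathway were not called. GAPDH was at 14.21 ± 0.03 against 14.19 ± 0.01, LDHA at 13.62 ± 0.05 against 13.59 ± 0.04 and ENO1 at 13.61 ± 0.02 against 13.57 ± 0.01 (limma adjusted p = 0.757, 0.763 and 0.637). These levels lie at the top of the range of values, which ends at 14.5. Whether the signal could still rise with the RNA there was not tested. PGK1 was called higher by 0.22 ± 0.05 (SE). The lower enzyme was PFKM, the muscle-type phosphofructokinase (-0.28, limma adjusted p = 0.0213), a call lost when 2% O2 replicate 1 or 3 or withdrawn replicate 1 or 2 was left out (adjusted p up to 0.0836). PFKP, the platelet type, was higher (0.37 ± 0.07 SE, limma adjusted p = 0.00113). PFKFB4, which makes the activator of phosphofructokinase, measured 9.13, 9.47 and 8.86 against 7.83, 7.72 and 7.66 (1.42 ± 0.11 SE, limma adjusted p = 1.14e-06), and PFKFB3 was not called (0.16, adjusted p = 0.115).

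Glycogen metabolism had 7 of 10 members higher and 1 lower (70.0% and 10.0%, against 10.8% and 7.73% of all genes), with a median of 0.40. Its member GBE1 is also in the HIF target list. PPP1R3C, which brings protein phosphatase 1 to glycogen, measured 9.38, 9.31 and 9.04 at 2% O2 with sorafenib and 7.89, 7.84 and 7.69 after withdrawal (1.44 ± 0.09 SE, limma adjusted p = 2.04e-07). The branching enzyme GBE1 (0.83), the related targeting subunit PPP1R3B (0.63), glycogen phosphorylase PYGL (0.57) and glycogen synthase GYS1 (0.41) were all called higher, with limma adjusted p of 2.54e-06, 0.000727, 2.45e-05 and 0.000162. Genes of both glycogen making and glycogen breakdown were thus among those that were higher. The lower member was GYG1, the primer of glycogen chains (-0.23, limma adjusted p = 0.0428), a call lost when 2% O2 replicate 1 or 2 or withdrawn replicate 1, 2 or 3 was left out (adjusted p up to 0.188).

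The pyruvate dehydrogenase kinases did not move together. PDK1 and PDK3 encode kinases that switch off pyruvate dehydrogenase. PDK1 measured 11.54, 11.54 and 11.40 against 10.57, 10.58 and 10.63 (0.90 ± 0.06 SE, limma adjusted p = 3.07e-07). PDK3 measured 8.07, 8.30 and 7.92 against 7.02, 7.05 and 7.01 (1.07 ± 0.09 SE, limma adjusted p = 1.95e-06), and the drug at 20% O2 gave 6.65 ± 0.03. PDK4, a kinase of the same family known from fasting, went the other way, at 11.25, 11.02 and 11.31 against 11.52, 11.54 and 11.51 (-0.33 ± 0.08 SE, limma adjusted p = 0.00889), and stood at 12.14 ± 0.02 with the drug at 20% O2. Over the list of the tricarboxylic acid cycle and pyruvate dehydrogenase, 4 of 19 members were called higher and 8 lower, with a median of -0.10. That is 21.1% and 42.1%, against 10.8% and 7.73% of all genes. PDK1 is also a member of the HIF target list. The lower members included the pyruvate dehydrogenase subunits PDHB (-0.38) and DLAT (-0.29) and the isocitrate dehydrogenase subunit IDH3A (-0.33), with limma adjusted p of 0.000489, 0.00158 and 0.000408. IDH2 was higher (0.61 ± 0.07 SE, limma adjusted p = 5.01e-05). Of 26 respiratory chain subunits, 1 was called higher and 2 lower, with a median of -0.07. Their shares, 3.85% and 7.69%, lay below the 10.8% and near the 7.73% of all genes. The higher one was COXFA4L2 (formerly NDUFA4L2, 0.53 ± 0.09 SE, limma adjusted p = 0.00115). NDUFA2 (-0.28, limma adjusted p = 0.00578) and ATP5F1A (-0.27, limma adjusted p = 0.00278) were lower. The count of 2 lower rose to 5 with trend and robust moderation or array weights and to 4 with the filter, 75th percentile scaling or repeated quantile normalization.

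Genes that shape collagen and matrix were higher in 8 of 15 members (53.3%, against 10.8% of all genes) and lower in 0, with a median of 0.33. Of the higher members, P4HA1, P4HA2, PLOD2 and LOX are also in the HIF target list. LOXL2 and LOX encode lysyl oxidases, which cross-link collagen. LOXL2 measured 11.75, 11.84 and 11.73 at 2% O2 with sorafenib and 10.50, 10.42 and 10.45 after withdrawal (1.31 ± 0.10 SE, limma adjusted p = 1.14e-06). LOX measured 13.19, 13.36 and 13.13 against 12.30, 12.24 and 12.26 (0.96 ± 0.07 SE, limma adjusted p = 3.17e-07). The collagen prolyl hydroxylase subunits P4HA2 (0.96) and P4HA1 (0.83) had limma adjusted p of 5.88e-07 and 7.82e-06. Of 16 matrix metalloproteinases and their inhibitors, 4 were higher (25.0%, against 10.8% of all genes) and 0 lower. They were the inhibitors TIMP3 (0.59, limma adjusted p = 1.29e-05), TIMP4 (0.45, limma adjusted p = 0.00464) and TIMP1 (0.44, limma adjusted p = 0.000134), and MMP7. With the drug at 20% O2, TIMP3 (10.80 ± 0.05) and TIMP1 (12.70 ± 0.04) lay near the low-oxygen flasks. TIMP4 (9.40 ± 0.07) and P4HA2 (10.02 ± 0.03) lay between the compared groups there. LOXL2 (10.17 ± 0.08) and LOX (11.77 ± 0.03) lay below the withdrawn flasks.

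Jumonji histone demethylases use oxygen as a substrate. Of 20 measured, 5 were called higher (KDM7A, KDM3A, JMJD6, KDM4C and KDM4B) and 1 lower (RIOX2), with a median of 0.09. These are 25.0% and 5.00%, against 10.8% and 7.73% of all genes, and KDM3A, KDM4C and KDM4B are also members of the HIF target list. The filter or array weights gave 8 higher, and without 2% O2 replicate 3 there were 2 lower. KDM7A measured 8.34, 8.50 and 8.09 against 7.64, 7.54 and 7.43 (0.77 ± 0.10 SE, limma adjusted p = 7.87e-05). With the drug at 20% O2 it lay at 8.04 ± 0.10, between the means of 8.31 at 2% O2 and 7.54 after withdrawal. KDM3A and JMJD6 were at 9.73 ± 0.06 and 9.32 ± 0.04 there, near their withdrawn means of 9.83 and 9.30. KDM3A was higher by 0.64 ± 0.06 (SE; limma adjusted p = 5.32e-06), and JMJD6 by 0.46 ± 0.06 (adjusted p = 0.000111).

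Secreted angiogenic factors moved in both directions, with 6 of 14 higher and 2 lower (42.9% and 14.3%, against 10.8% and 7.73% of all genes). Of the higher members, VEGFA, ADM, ANGPTL4 and STC1 are also in the HIF target list. VEGFA, the main growth factor for vessels, measured 12.28, 12.31 and 12.21 at 2% O2 with sorafenib and 11.28, 11.30 and 11.30 after withdrawal (0.97 ± 0.05 SE, limma adjusted p = 4.38e-08), and 11.24 ± 0.04 with the drug at 20% O2. ADM (adrenomedullin), a vasodilator peptide, measured 11.51, 11.66 and 11.48 against 10.34, 10.20 and 10.20 (1.30 ± 0.09 SE, limma adjusted p = 3.07e-07). STC1 (stanniocalcin 1), which also inhibits pappalysins, measured 7.98, 8.08 and 7.53 against 6.57, 6.87 and 6.52 (1.21 ± 0.12 SE, limma adjusted p = 1.1e-05). For these 3 all low-oxygen flasks lay above all withdrawn flasks, as they did in 18.8% of all genes. The other higher members were ANGPTL4, PDGFB and VEGFB (0.28). The lower ones were THBS1 and FGF2, a fibroblast growth factor (-0.66 ± 0.14 SE, limma adjusted p = 0.00378).

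The IGF axis had 5 of 12 members higher and 1 lower (PAPPA), or 41.7% and 8.33%, against 10.8% and 7.73% of all genes. Of the higher members, STC1 and STC2 are also in the HIF target list. IGFBP3, a carrier protein that holds insulin-like growth factors, measured 11.60, 12.02 and 11.52 against 10.28, 10.11 and 10.19 (1.52 ± 0.12 SE, limma adjusted p = 7.73e-07). The drug at 20% O2 gave 8.86 ± 0.05, below both compared groups. IGFBP1, a related carrier, was higher by 0.61 ± 0.09 (SE; limma adjusted p = 0.000226). PAPPA2, a protease that cleaves IGF-binding proteins, measured 8.38, 8.10 and 8.27 at 2% O2 with sorafenib and 6.83, 6.94 and 6.75 after withdrawal (1.41 ± 0.12 SE, limma adjusted p = 2.99e-06). Here the drug at 20% O2 gave 8.26 ± 0.05, at the level of the low-oxygen flasks.

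The ATF4 amino acid stress response was higher in 21 of 36 members (58.3%, against 10.8% of all genes) and lower in 4 (11.1%, against 7.73%), with a median of 0.26. The median level over the list was 11.07 at 2% O2 with sorafenib, 10.78 after withdrawal and 11.16 with the drug at 20% O2. ATF4 itself measured 11.10, 11.11 and 11.06 against 10.41, 10.50 and 10.66 (0.57 ± 0.09 SE, limma adjusted p = 0.000632), with 11.21 ± 0.15 under the drug at 20% O2. DDIT3 (CHOP), a partner of ATF4 in stress, measured 10.96, 10.80 and 10.77 against 9.89, 9.79 and 9.84 (1.01 ± 0.07 SE, limma adjusted p = 5.88e-07), with 10.61 ± 0.12 under the drug at 20% O2. ASNS (asparagine synthetase) measured 10.57, 10.27 and 10.49 against 9.72, 9.68 and 9.59 (0.78 ± 0.07 SE, limma adjusted p = 5.79e-06), with 10.73 ± 0.05 under the drug at 20% O2. In each of the 3 genes the withdrawn flasks were the lowest of the line.

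The ATF4 response element is shown for ASNS, on the minus strand at chr7:97872409-97872658, and GARS1, on the plus strand at chr7:30594628-30594877, both from the same table. Capitals mark TGATGNAA on either strand, and of the 2 starts that each gene has in the table the one with the match is shown.
ASNS: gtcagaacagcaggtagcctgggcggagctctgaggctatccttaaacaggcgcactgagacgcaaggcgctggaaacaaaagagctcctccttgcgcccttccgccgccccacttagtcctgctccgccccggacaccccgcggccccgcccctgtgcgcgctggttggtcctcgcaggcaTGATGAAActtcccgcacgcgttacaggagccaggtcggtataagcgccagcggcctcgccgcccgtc
GARS1: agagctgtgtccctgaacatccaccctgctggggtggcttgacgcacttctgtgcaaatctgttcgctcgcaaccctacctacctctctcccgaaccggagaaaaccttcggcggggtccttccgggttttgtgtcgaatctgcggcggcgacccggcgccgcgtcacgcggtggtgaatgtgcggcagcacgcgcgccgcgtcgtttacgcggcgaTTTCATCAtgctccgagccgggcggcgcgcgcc
The match began 68 bases before the start in ASNS and 33 bases before it in GARS1, where it lies on the opposite strand. This motif was held by 2.32% of the 20069 promoters and 3.12% of genes with a promoter. Of the 21 members called higher, 17 had a promoter in the table, and ASNS and GARS1 were the 2 with a match (11.8%). No match says only that these letters are not in the window.

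Enzymes of serine and one-carbon metabolism were among the higher members. ALDH1L2, a mitochondrial folate enzyme, measured 8.30, 8.17 and 7.98 against 7.11, 7.14 and 6.93 (1.09 ± 0.09 SE, limma adjusted p = 2.35e-06), with 8.11 ± 0.15 under the drug at 20% O2. The serine pathway enzyme PHGDH was higher by 0.50 ± 0.06 (SE) and SHMT2, which splits serine in mitochondria, by 0.48 ± 0.05 (limma adjusted p = 8.11e-05 and 1.28e-05). The transfer RNA ligases WARS1 (0.46) and GARS1 (0.30) had limma adjusted p of 0.00012 and 0.000579. NUPR1, a stress-induced chromatin protein, measured 11.41, 11.18 and 11.53 against 10.65, 10.49 and 10.55 (0.81 ± 0.08 SE, limma adjusted p = 6.7e-06). VLDLR, a lipoprotein receptor, was higher (0.90 ± 0.10 SE, limma adjusted p = 1.79e-05) and stood at 8.43 ± 0.10 with the drug at 20% O2, near the withdrawn level of 8.35.

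Not all ATF4 genes followed. SLC7A11, the cystine importer, was lower, at 10.54, 10.34 and 10.62 against 11.10, 11.10 and 10.93 (-0.54 ± 0.11 SE, limma adjusted p = 0.00202). ATF5, another stress factor, was lower too (-0.46 ± 0.07 SE, limma adjusted p = 0.000506). ATF3 (-0.26, limma adjusted p = 0.0368) was a call lost when 2% O2 replicate 2 or 3 or withdrawn replicate 1, 2 or 3 was left out (adjusted p up to 0.139). SLC38A2 (-0.20, limma adjusted p = 0.0411), a neutral amino acid importer, was a call lost when 2% O2 replicate 1 or 2 or withdrawn replicate 1, 2 or 3 was left out (adjusted p up to 0.172). The count of 4 lower members fell to 2 without 2% O2 replicate 2 or withdrawn replicate 1, 2 or 3. The subunits of the large neutral amino acid transporter were not called, with SLC7A5 at 0.06 (adjusted p = 0.524) and SLC3A2 at 0.05 (adjusted p = 0.517).

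The chaperones and degradation factors of the endoplasmic reticulum were higher in 8 of 20 members and lower in 0, with a median of 0.18. With array weights 13 were called higher. DNAJB9, a co-chaperone of the unfolded protein response, measured 9.02, 8.99 and 8.84 against 8.31, 8.18 and 8.21 (0.72 ± 0.07 SE, limma adjusted p = 1.16e-05), with 8.90 ± 0.08 under the drug at 20% O2. SEL1L and EDEM1, which help to clear misfolded proteins, were higher by 0.62 ± 0.07 and 0.51 ± 0.06 (SE; limma adjusted p = 1.46e-05 and 6.47e-05). HSPA5 (BiP), the main chaperone, was higher by 0.22 ± 0.05 (adjusted p = 0.00428).

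Genes of the G1/S transition and DNA replication were lower as a group. Of 31 measured, 23 were called lower (74.2%, against 7.73% of all genes) and 0 higher, with a median of -0.31. The median level was 10.20 at 2% O2 with sorafenib, 10.51 after withdrawal and 10.05 with the drug at 20% O2. RRM2, the regulated subunit of ribonucleotide reductase, measured 9.38, 9.43 and 9.28 against 10.20, 10.20 and 10.11 (-0.81 ± 0.07 SE, limma adjusted p = 2.51e-06). CCNE1 (cyclin E1) measured 8.53, 8.66 and 8.68 against 9.33, 9.25 and 9.24 (-0.65 ± 0.07 SE, limma adjusted p = 1.77e-05), and CCNE2 was lower too (-0.58 ± 0.11 SE, limma adjusted p = 0.00223). The withdrawn flasks were above all flasks with the drug, which had 9.21 ± 0.12 for RRM2 and 8.57 ± 0.12 for CCNE1 at 20% O2.

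FAM111B, a replication-associated protease, fell by 0.73 ± 0.16 (SE; limma adjusted p = 0.00511). The replication licensing genes CDC6 (-0.39) and MCM10 (-0.49) had limma adjusted p of 0.000143 and 0.000236. Members that were not called included RRM1 (-0.07) and E2F7 (0.14). Of 11 CDK inhibitors and D-type cyclins, 0 were higher and 4 lower: CCND1 (cyclin D1; -0.51 ± 0.06 SE, limma adjusted p = 6.89e-05), its partner CDK6 (-0.37, adjusted p = 0.00314), CDKN2A and CDKN2B. CDKN2B (-0.20, limma adjusted p = 0.0281) was a call lost when 2% O2 replicate 2 or 3 or withdrawn replicate 1, 2 or 3 was left out (adjusted p up to 0.127). The count of 4 fell to 2 when 2% O2 replicate 2 or 3, or withdrawn replicate 1, 2 or 3, was left out.

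Of 27 G2/M and spindle genes, 2 were called higher and 2 lower (7.41% each, near the 10.8% and 7.73% of all genes), with a median of -0.04. The count of 2 lower fell to 1 when any 1 of the 6 arrays was left out. The count of 2 higher fell to 1 without 2% O2 replicate 1 or 2 or withdrawn replicate 1 and rose to 6 with array weights. UBE2C, a ubiquitin conjugating enzyme of mitotic exit, was higher (0.48 ± 0.06 SE, limma adjusted p = 9.25e-05) and BUB1B, a checkpoint kinase, lower (-0.29 ± 0.06 SE, limma adjusted p = 0.00205). CDC25C (0.33, limma adjusted p = 0.0153) was a call lost when 2% O2 replicate 1 or 2 or withdrawn replicate 1 was left out (adjusted p up to 0.066), and CCNB1 was the other lower member. The proliferation marker MKI67 was at 11.43 ± 0.10 against 11.55 ± 0.06 and not called (adjusted p = 0.168). Of 29 replication-dependent histone genes, 2 were higher (H2AC14 and H1-5) and 2 lower (H4C8 and H4C3), 6.90% each. The count of 2 lower fell to 1 without 2% O2 replicate 2 or 3 or withdrawn replicate 1 or 2. H4C8 fell by 0.36 ± 0.08 (SE; limma adjusted p = 0.0048). H2AC14 (0.80, limma adjusted p = 0.041), whose groups overlapped, was a call lost when 2% O2 replicate 1 or 3 or withdrawn replicate 1 or 2 was left out (adjusted p up to 0.203). H1-5 (0.33, limma adjusted p = 0.0134) was a call lost when 2% O2 replicate 3 or withdrawn replicate 1 was left out (adjusted p up to 0.0611). Of 20 p53 target genes, 15.0% were called higher and 5.00% lower, near the shares of all genes. The 3 higher were SESN1 (0.49, adjusted p = 0.00112), TP53INP1 (0.37, adjusted p = 0.00823) and DDB2, and TIGAR was lower (-0.25, limma adjusted p = 0.0417), a call lost when 2% O2 replicate 1 or 2 or withdrawn replicate 1, 2 or 3 was left out (adjusted p up to 0.16).

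**Figure D4:**
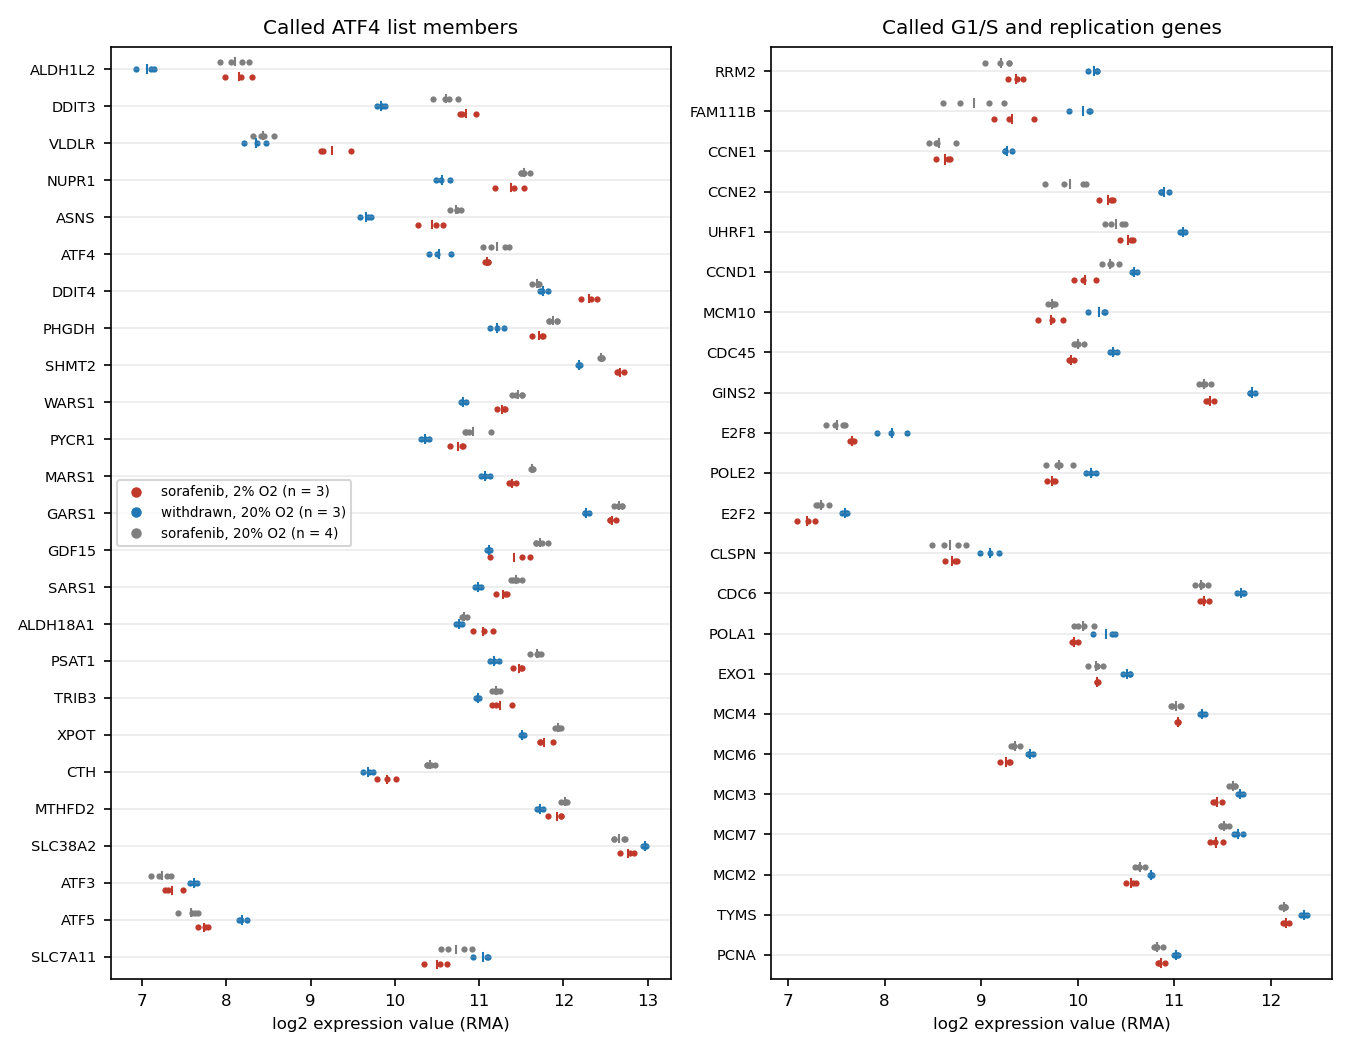
Log2 expression values of the called members of the ATF4 list (left) and of the G1/S and DNA replication list (right), with 1 point per flask and a bar at each group mean. For most ATF4 genes the withdrawn flasks lie to the left and for the replication genes to the right of both groups with sorafenib.

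Outputs of ERK signalling, the pathway downstream of RAF, were lower in 8 of 23 members and higher in 2, with a median of -0.07. EGR1, an immediate early factor, measured 8.25, 8.49 and 8.29 at 2% O2 with sorafenib and 9.35, 9.47 and 9.52 after withdrawal (-1.11 ± 0.08 SE, limma adjusted p = 5.07e-07), with 8.63 ± 0.08 under the drug at 20% O2. SPRY4, a feedback inhibitor, measured 6.64, 6.56 and 6.42 against 7.45, 7.40 and 7.25 (-0.83 ± 0.08 SE, limma adjusted p = 8.02e-06). DUSP6, an ERK phosphatase, fell by 0.39 ± 0.08 (SE) and MYC fell by 0.25 ± 0.05 (limma adjusted p = 0.00217 and 0.00522). The 2 higher members were JUN, at 9.99, 9.96 and 9.70 against 8.57, 8.67 and 8.66 (1.25 ± 0.09 SE, limma adjusted p = 4.27e-07), and SPRY1, at 9.04, 9.22 and 8.87 against 8.21, 8.11 and 8.02 (0.94 ± 0.09 SE, limma adjusted p = 5.14e-06). Both were near the withdrawn level with the drug at 20% O2 (8.77 ± 0.14 and 8.05 ± 0.08).

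EGF family ligands split. EREG (epiregulin) measured 9.48, 9.43 and 9.36 against 10.50, 10.47 and 10.54 (-1.08 ± 0.09 SE, limma adjusted p = 1.07e-06) and was lower, as EPGN was. NRG4 (neuregulin 4), a ligand of ERBB4, measured 9.86, 10.07 and 9.35 against 8.41, 8.49 and 8.33 (1.35 ± 0.14 SE, limma adjusted p = 1.6e-05) and was higher, with 7.97 ± 0.12 under the drug at 20% O2. EGFR was higher (0.36 ± 0.06 SE, limma adjusted p = 0.000449), as were ERBB2 and the receptor inhibitor ERRFI1 (0.42 ± 0.05 SE, limma adjusted p = 8.06e-05), so that 4 of 14 members were higher and 2 lower.

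Of 12 kinases known to bind sorafenib, DDR2 was the only member called (8.33%, against 18.6% of all genes). DDR2, a collagen receptor kinase, measured 9.14, 8.94 and 9.34 at 2% O2 with sorafenib and 8.18, 8.02 and 7.91 after withdrawal (1.10 ± 0.10 SE, limma adjusted p = 3.33e-06). Its level with the drug at 20% O2 was 9.26 ± 0.13 and in HepG2 cells 6.41 ± 0.03. The withdrawn flasks were thus the lowest of the line. Of the 12 kinases, 5 were below the lower quartile of all values in both groups.

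YAP/TEAD target genes were lower in 7 of 17 members and higher in 1 (AXL), with a median of -0.06. AXL was not called without 2% O2 replicate 1 or withdrawn replicate 2 or 3. CCN1, a matricellular protein, measured 9.49, 9.28 and 9.65 against 10.47, 10.39 and 10.39 (-0.95 ± 0.08 SE, limma adjusted p = 2.25e-06). ANKRD1 measured 9.42, 9.24 and 9.99 against 10.19, 10.18 and 10.31 (-0.67 ± 0.14 SE, limma adjusted p = 0.00295), with 2% O2 replicate 3 nearest to the withdrawn flasks. The transcription factor TEAD4 was lower (-0.47 ± 0.07 SE, limma adjusted p = 0.000177). CCN2 (-0.38, limma adjusted p = 0.025), whose groups overlapped, was a call lost when 2% O2 replicate 1 or 2 or withdrawn replicate 1 or 3 was left out (adjusted p up to 0.125). The count of 7 fell to 4 when 2% O2 replicate 1 or 2, or withdrawn replicate 1 or 3, was left out.

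Among TGF-beta, BMP and ID genes, 3 of 21 were higher and 3 lower (14.3% each, against 10.8% and 7.73% of all genes). ID3, an inhibitor of differentiation factors, was lower (-0.52 ± 0.11 SE, limma adjusted p = 0.00258), as were SMAD6 and TGFBR2. TGFB1 was higher (0.44 ± 0.09 SE, limma adjusted p = 0.00224), as were GDF15 and TGFB2. TGFB2 (0.44, limma adjusted p = 0.0269) was a call lost when 2% O2 replicate 1 or 2 or withdrawn replicate 2 or 3 was left out (adjusted p up to 0.124). The count of 3 higher fell to 1 without 2% O2 replicate 1 or withdrawn replicate 2 or 3.

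Of 23 mesenchymal genes, 4 were higher (LOX, ACTA2, COL5A1 and TWIST1; 17.4%, against 10.8% of all genes) and 2 lower (TAGLN and POSTN; 8.70%, against 7.73%). The count of 2 lower fell to 1 without 2% O2 replicate 1 or 3 or withdrawn replicate 1 or 2 and to 0 with the filter on low values, and rose to 4 with array weights. ACTA2 differed by 0.45 ± 0.06 (SE) and TAGLN by -0.44 ± 0.11 (limma adjusted p = 0.000128 and 0.00898). VIM was high in both groups (12.66 ± 0.04 against 12.60 ± 0.01; adjusted p = 0.484), ZEB1 (0.06), SNAI1 (0.02) and CDH2 (-0.15) were not called, and CDH1, the epithelial cadherin, was near the lower quartile at 5.83 ± 0.12 against 5.99 ± 0.05 (adjusted p = 0.212). Of 17 epithelial junction and keratin genes, 2 were higher and 2 lower (11.8% each, against 10.8% and 7.73% of all genes). The 2 higher became 4 without 2% O2 replicate 3 or with array weights and 1 without withdrawn replicate 3, and the 2 lower became 5 with array weights. CLDN7, a tight junction protein, measured 11.41, 11.34 and 11.26 against 10.55, 10.50 and 10.40 (0.85 ± 0.08 SE, limma adjusted p = 7.82e-06). CLDN4 (0.32, limma adjusted p = 0.00993) was a call lost when withdrawn replicate 3 was left out (adjusted p up to 0.057). The lower members were the simple keratins KRT8 and KRT18 (-0.36 ± 0.05 SE, limma adjusted p = 0.000145).

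Of 19 integrins and basement membrane genes, 3 were higher, ITGA5 (0.61, adjusted p = 0.000159), ITGB4 (0.47, adjusted p = 0.000621) and ITGA2, and 2 lower, ITGB8 (-0.53, adjusted p = 0.000116) and LAMB1. These are 15.8% and 10.5%, against 10.8% and 7.73% of all genes. Without 2% O2 replicate 2 or 3 or withdrawn replicate 1 or 2, 1 lower member was left. Of 9 clade B serpins, SERPINB7 (0.53 ± 0.12 SE, limma adjusted p = 0.0065) and SERPINB1 were higher and SERPINB3, SERPINB4 and SERPINB5 lower. That is 22.2% and 33.3%, against the same shares of all genes. SERPINB4 (-0.84, limma adjusted p = 0.00344) lay below the lower quartile of all values at 2% O2 with sorafenib. In the plasminogen activator system, 1 of 7 was higher and 1 lower, 14.3% each, against 10.8% and 7.73% of all genes. The higher one was the urokinase receptor PLAUR (0.45 ± 0.08 SE, limma adjusted p = 0.000808). The lower one was the inhibitor SERPINE2 (-0.38 ± 0.07 SE, limma adjusted p = 0.00108).

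Lipid synthesis genes were lower or not called, with exceptions. Of 17 sterol synthesis genes, 7 were lower and 1 higher, with a median of -0.17. LSS (lanosterol synthase) measured 9.38, 9.44 and 9.38 against 9.81, 9.81 and 9.83 (-0.42 ± 0.05 SE, limma adjusted p = 6.17e-05), and MSMO1 was lower (-0.40 ± 0.09 SE, limma adjusted p = 0.00402). INSIG1, which holds back sterol synthesis, was higher, at 10.36, 10.38 and 10.05 against 9.75, 9.63 and 9.59 (0.61 ± 0.11 SE, limma adjusted p = 0.00133). Of 15 genes of fatty acid synthesis, 0 were higher and 5 lower, among them ACACA (acetyl-CoA carboxylase; -0.59 ± 0.08 SE, limma adjusted p = 7.4e-05), the lipogenic regulator SREBF1 (-0.42 ± 0.07 SE, limma adjusted p = 0.000545) and FASN (-0.38 ± 0.07 SE, limma adjusted p = 0.00123).

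Of 15 genes of fatty acid oxidation, ACADVL (0.50 ± 0.06 SE, limma adjusted p = 4.19e-05) and PPARA (0.48 ± 0.05 SE, limma adjusted p = 1.14e-05) were higher and SLC25A20 (-0.39 ± 0.07 SE, limma adjusted p = 0.00151), PDK4 and CPT1A lower. That is 13.3% higher and 20.0% lower, against 10.8% and 7.73% of all genes. Of 15 lipid droplet genes, 3 were higher (HILPDA, DGAT1 and MGLL) and 3 lower (ABHD5, DGAT2 and PNPLA3), 20.0% each. HILPDA, an inhibitor of lipolysis and a HIF target, measured 10.59, 10.77 and 10.42 against 9.29, 9.38 and 9.34 (1.26 ± 0.08 SE, limma adjusted p = 2.04e-07). ABHD5, the activator of that lipase, was lower (-0.37 ± 0.06 SE, limma adjusted p = 0.000659). DGAT2 (-0.31, limma adjusted p = 0.0434) was a call lost when 2% O2 replicate 1 or 2 or withdrawn replicate 1, 2 or 3 was left out (adjusted p up to 0.2). The count of 3 lower fell to 1 without 2% O2 replicate 1 or withdrawn replicate 2.

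NRF2 target genes, which guard against oxidants, were lower in 8 of 21 members and higher in 4 (AKR1C3, FTL, ABCC3 and GCLC), with a median of 0.00. ABCC2, an export pump for conjugates, measured 9.02, 8.91 and 9.12 against 9.96, 9.92 and 9.65 (-0.82 ± 0.09 SE, limma adjusted p = 1.6e-05). NQO1, a quinone reductase, measured 11.41, 11.36 and 11.32 against 11.90, 11.86 and 11.85 (-0.50 ± 0.05 SE, limma adjusted p = 5.49e-06), and GSR, glutathione reductase, was lower (-0.49 ± 0.06 SE, limma adjusted p = 2.57e-05). The count of 4 higher fell to 2 without 2% O2 replicate 1 or 2 or withdrawn replicate 2 or 3. Of 8 aryl hydrocarbon receptor genes, 3 were lower: NQO1, CYP1B1 and TIPARP. CYP1B1 (-0.34, limma adjusted p = 0.0248) was a call lost when 2% O2 replicate 1 or 2 or withdrawn replicate 1 or 3 was left out (adjusted p up to 0.114). TIPARP (-0.31, limma adjusted p = 0.0233) was a call lost when 2% O2 replicate 1 or 3 or withdrawn replicate 1, 2 or 3 was left out (adjusted p up to 0.0945). Without 2% O2 replicate 1 or withdrawn replicate 1 or 3, the count fell from 3 to 1.

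Metal handling held some of the larger differences. MT1F, a metallothionein that binds zinc and copper, was at 11.99 ± 0.09 against 10.99 ± 0.06 (1.01 ± 0.06 SE, limma adjusted p = 2.04e-07). MT1X was higher too (0.58 ± 0.06 SE, limma adjusted p = 1.96e-05). They were 2 of 11 metallothioneins (18.2%, against 10.8% of all genes), and 0 were lower. CP (ceruloplasmin), a copper enzyme that oxidises iron, measured 6.74, 6.62 and 6.47 against 5.28, 5.08 and 5.40 (1.36 ± 0.14 SE, limma adjusted p = 1.06e-05). Its withdrawn level was below the lower quartile of all values, and HepG2 cells had 12.11 ± 0.20. STEAP4, a metal reductase, was at 11.05 ± 0.04 against 11.97 ± 0.03 (-0.92 ± 0.12 SE, limma adjusted p = 9.47e-05). STEAP3, a related reductase, was higher (0.66 ± 0.06 SE, limma adjusted p = 3.43e-06) and TFRC, the transferrin receptor, lower (-0.44 ± 0.07 SE, limma adjusted p = 0.000482). In all, 5 of 12 iron genes were higher and 2 lower (41.7% and 16.7%, against 10.8% and 7.73% of all genes).

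Autophagy and lysosome genes were higher in 6 of 22 members (27.3%, against 10.8% of all genes) and lower in 2 (GLA and SQSTM1; 9.09%, against 7.73%), with a median of 0.07. Leaving out any 1 of the 6 arrays left 1 lower. WIPI1, a phagophore protein, measured 10.96, 10.82 and 10.82 against 10.27, 10.09 and 10.11 (0.71 ± 0.07 SE, limma adjusted p = 5.49e-06), with 11.25 ± 0.09 under the drug at 20% O2. The autophagosome protein MAP1LC3B (0.41, adjusted p = 0.00254) and the starting kinase ULK1 (0.37, adjusted p = 0.000506) were higher as well (limma). Circadian clock genes were higher in 8 of 20 members and lower in 0, with a median of 0.10. RORA measured 7.29, 7.74 and 7.45 against 6.61, 6.35 and 6.52 (1.00 ± 0.12 SE, limma adjusted p = 3.12e-05). BHLHE40 measured 11.64, 11.69 and 11.51 against 10.68, 10.69 and 10.66 (0.94 ± 0.06 SE, limma adjusted p = 1.71e-07). BHLHE41, PER2 and NR1D1 were higher by 0.75, 0.66 and 0.54 (limma adjusted p = 6.41e-06, 2.95e-05 and 0.00153). RORA and BHLHE40 are also members of the HIF target list.

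Inflammatory cytokines were higher in 3 of 19 members (IL1B, IL1A and TNFAIP3) and lower in 5 (CXCL2, IL18, CCL20, CXCL1 and IL6), with a median of -0.09. IL1B measured 9.09, 9.10 and 8.79 against 8.11, 8.07 and 8.03 (0.92 ± 0.09 SE, limma adjusted p = 1.02e-05), with 8.76 ± 0.10 under the drug at 20% O2. The chemokine CXCL2 was lower (-0.56 ± 0.07 SE, limma adjusted p = 8.49e-05), as was IL18 (-0.52 ± 0.10 SE, limma adjusted p = 0.00177). Of 14 prostaglandin genes, 1 was higher and 2 lower (7.14% and 14.3%, against 10.8% and 7.73% of all genes). PLA2G4A, the phospholipase that frees arachidonic acid, measured 7.23, 7.36 and 7.18 against 8.15, 8.14 and 8.07 (-0.86 ± 0.10 SE, limma adjusted p = 2.17e-05). The receptor PTGER2 was lower (-0.50 ± 0.08 SE, limma adjusted p = 0.000533), and PTGFR (0.24, limma adjusted p = 0.0299) was a call lost when 2% O2 replicate 1 or 2 or withdrawn replicate 2 or 3 was left out (adjusted p up to 0.13).

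Of 20 interferon-stimulated genes, 2 were higher and 1 lower (10.0% and 5.00%, near the 10.8% and 7.73% of all genes). OASL was lower (-0.81 ± 0.06 SE, limma adjusted p = 1.14e-06) and IFIH1 higher (0.45 ± 0.11 SE, limma adjusted p = 0.00841), and IRF9 (0.30, limma adjusted p = 0.039) was a call lost when 2% O2 replicate 1 or 2 or withdrawn replicate 1 or 3 was left out (adjusted p up to 0.152). Of 14 BCL2 family members, 1 was higher (BAD) and 3 lower (BID, PMAIP1 and BCL2L11), or 7.14% and 21.4% against 10.8% and 7.73% of all genes. BID, which links death receptors to mitochondria, was lower (-0.42 ± 0.08 SE, limma adjusted p = 0.00192). BAD (0.28, limma adjusted p = 0.017) was a call lost when 2% O2 replicate 3 or withdrawn replicate 2 or 3 was left out (adjusted p up to 0.0739). PMAIP1 (-0.27, limma adjusted p = 0.0223) was a call lost when 2% O2 replicate 2 or withdrawn replicate 2 or 3 was left out (adjusted p up to 0.11). The count of 3 lower fell to 1 without withdrawn replicate 2.

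In lists of cell type markers the calls are again set against 10.8% higher and 7.73% lower over all genes. Of 22 hepatocyte secreted proteins, 0 were higher and 3 lower, and 9 were below the lower quartile of all values in both groups. The mean level of this list was 5.96 to 6.02 over the flasks of 2% O2 with sorafenib and 6.09 to 6.12 over the withdrawn flasks. The 3 were RBP4 (-0.60 ± 0.09 SE, limma adjusted p = 0.000434), APOB (-0.30 ± 0.07 SE, limma adjusted p = 0.00467) and APOA2. APOA2 (-0.15, limma adjusted p = 0.0474) was a call lost when 2% O2 replicate 1, 2 or 3 or withdrawn replicate 1, 2 or 3 was left out (adjusted p up to 0.187). Of 12 hepatocyte transcription factors, 1 was higher, GATA6 (0.28, limma adjusted p = 0.02), a call lost when 2% O2 replicate 3 or withdrawn replicate 1 or 2 was left out (adjusted p up to 0.0822). Of 11 fibroblast and stellate cell markers, 18.2% were higher and 18.2% lower: RGS5 (0.59 ± 0.10 SE, limma adjusted p = 0.000541) and ACTA2 were higher and LUM (-0.64 ± 0.15 SE, limma adjusted p = 0.00789) and DCN lower, with mean levels of 7.78 to 7.80 against 7.84 to 7.85. Without 2% O2 replicate 3 or withdrawn replicate 2, the count of 2 lower fell to 1. Of 11 endothelial and blood cell markers, CD68, a lysosomal protein, was higher (0.69 ± 0.07 SE, limma adjusted p = 7.02e-06), and 5 had a mean below the lower quartile in each group. The list's mean level was 6.34 to 6.43 against 6.30 to 6.40. Of 10 squamous epithelium markers, 20.0% were lower, KRT5 and KRT13, with mean levels of 6.82 to 6.85 against 6.93 to 7.04. KRT13 (-0.22, limma adjusted p = 0.0246) was a call lost when 2% O2 replicate 1 or 2 or withdrawn replicate 3 was left out (adjusted p up to 0.115). The part of such markers in the other results was not tested. In RNA from whole flasks, fewer cells of a type and less RNA per cell cannot be told apart.

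CD22, a lectin receptor of B cells, was not called (-0.24, limma adjusted p = 0.134). It measured 7.90, 7.51 and 8.01 against 8.13, 8.03 and 7.97, with overlap, and 8.97 ± 0.09 with the drug at 20% O2. Without 2% O2 replicate 3 it was called lower (-0.34, limma adjusted p = 0.0328).

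**Figure D5:**
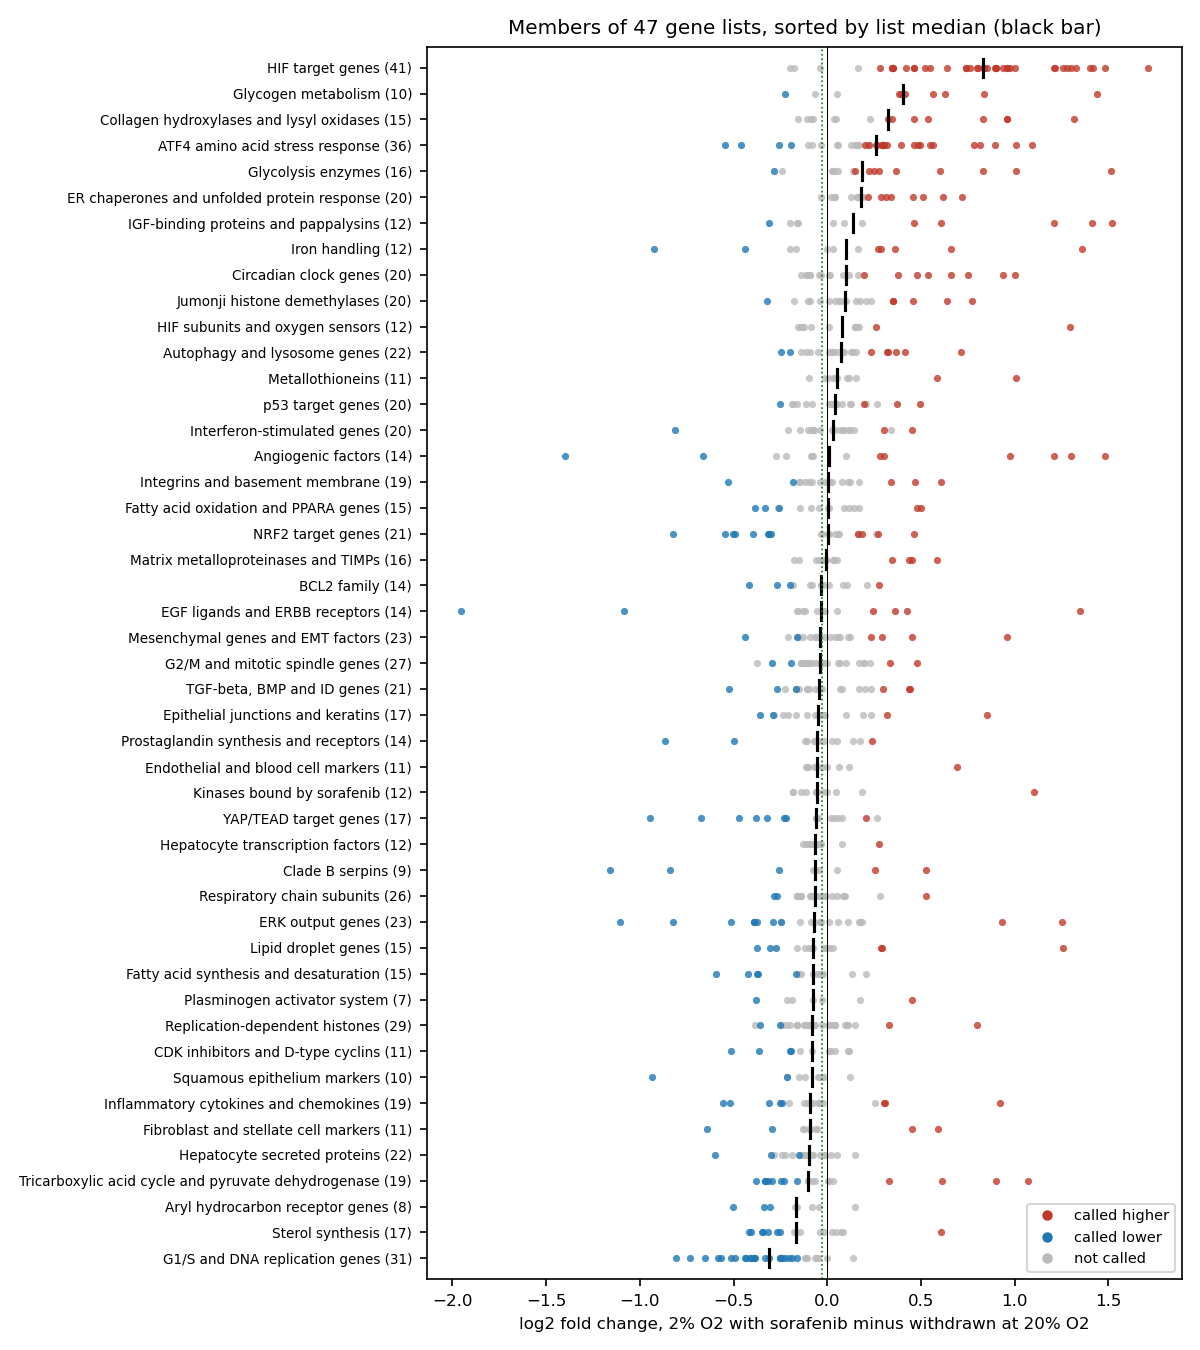
Log2 fold changes (2% O2 with sorafenib minus withdrawn at 20% O2) of the measured members of 47 gene lists, 1 point per gene, coloured by call, with a black bar at each list median; the dotted green line marks the median of all genes, -0.03. The HIF target list lies furthest to the right (median 0.83) and the G1/S and DNA replication list furthest to the left (median -0.31).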

How the data were processed

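RNA of 13 flasks was measured on 13 Affymetrix whole-transcript arrays, 1 per flask. The deposited values are log2 signals, 1 table for all arrays. The submitters' processing notes name RMA, a method that subtracts background, equalises the arrays and combines the probes of a transcript, and that compresses differences of dim genes. The RMA version is not given in the sources used here, nor is any scan date or batch. Of 28926 rows, 19310 had 1 gene symbol in the platform annotation, 1752 several and 7864 none; symbols of 19279 rows were brought up to date by Entrez ID in RefSeq's gene table (GRCh38.p14). For 685 genes with several rows the row with the highest mean was used, which left 18377 genes with values from 2.68 to 14.5.

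Groups were compared with limma 3.58.1 (R 4.3.3; lmFit and eBayes) in 1 fit over all 4 groups, with Benjamini-Hochberg adjustment over all genes and a threshold of 0.05. Simulated data for 18377 genes had 50 genes changed at each size. Recovery was 38% at a log2 change of 0.3, 88% at 0.5 and 98% at 1, with 8 false among 170 calls. Far fewer genes changed there than were called in the comparison (3412), so that recovery may differ in the comparison. The 47 gene lists held 850 distinct genes, of which 784 were measured, and 41 genes were in more than 1 list. The comparison, lists and named members were chosen with earlier results of these data known. Genes named were the 12 largest rises and falls among called genes without overlap between the compared arrays, from each list the called members that changed most, at most 3, and a fixed set (HIF1A, EPAS1, ARNT, VHL, CDH1, CDH2, VIM, SNAI1, ZEB1, AFP, ALB, MKI67, DDR2, IGFBP3, ASNS, PDK4 and CD22), 153 in all. The largest rises and falls left out unnamed loci, pseudogenes, antisense and small RNA symbols, olfactory receptor genes and Y-linked genes. A further 54 genes with values, and other members named without values, were added after their values were seen. Alternatives were the 2 groups alone, the 10 HepG2S1 arrays alone, trend and robust moderation, a filter at the 33rd percentile, 75th percentile scaling, repeated quantile normalization, weights per array, averaging the rows of a gene, testing every row, a threshold of 0.01 and omission of single arrays. Python 3.11.15 with matplotlib 3.10.9 drew the figures.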

Additional observations from a re-analysis of the deposited data

Results flagged for a closer look

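In the 4 flasks with sorafenib at 20% O2, whose levels stand beside the comparison, 11 of the 207 genes with values in the text had 1 flask far from the other 3 by Dixon's test (gap over range above 0.829), and chance gives about 1 gene in 20. The outlying flask was the highest for KRT5 (7.97), LOXL2 (10.29) and PDK3 (6.70). It was the lowest for TGFB1 (9.80), TIMP3 (10.73), LSS (9.57), IL18 (10.62), HIF1A (12.53), VEGFA (11.19), PDHB (9.42) and CCN2 (8.24). Groups of 3 flasks were not tested.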

How the results depend on the processing

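No paired analysis was possible on the labels alone, because the labels carry no replicate numbers shared between the groups. The replicate numbers used here follow the order of the arrays in the series. The principal component after the leading one held 13.5% of the variance of the 6 arrays. Replicate 3 of 2% O2 with sorafenib scored 10.62 on it and withdrawn replicate 3 scored 6.16, and the others lay between -8.39 and 0.87. An effect of the array order was not tested. The 1992 higher genes became 1261 at an adjusted p of 0.01, and the 1420 lower genes became 788 there and 2453 with array weights. Leaving out 1 array gave 1451 to 1895 higher and 987 to 1450 lower genes, and 52 to 76 and 6 to 9 genes with a 2-fold change. The higher and lower counts were 1858 and 1657 with repeated quantile normalization. HIF targets called higher numbered 33 to 37 over all settings, ATF4 list members 17 to 25, and G1/S genes called lower 19 to 23. Among smaller lists, array weights gave 5 higher ERK outputs in place of 2, 6 lower hepatocyte secreted proteins in place of 3, 5 lower TGF-beta list genes in place of 3 and 5 higher integrin list genes in place of 3. The filter on low values gave 1 lower clade B serpin in place of 3 and 0 lower prostaglandin genes in place of 2, and 75th percentile scaling gave 5 lower fatty acid oxidation genes in place of 3. Of 185 called genes with values in the text, 163 kept call and direction in all 15 settings run on single genes. The call was lost in at least 1 setting for 22 genes, and 0 reversed. For genes with several rows, testing every row followed only the row with the highest mean. The opposite direction of the other GPATCH4 row (0.52) is therefore not counted as a reversal. All 22 lost the call in at least 1 fit without 1 array, as given beside each gene. Members named without values were, apart from AXL, not followed in this way. Among the 22 genes not called, EPAS1, ARNT, CDH2 and CD22 were called in at least 1 setting. Precision is limited by 3 arrays a group: at a log2 change of 0.3, simulated recovery was 38%. The simulation gave 170 calls and the comparison 3412, and the adjustment is stricter when fewer genes change. Recovery at the number of changes in the comparison was not tested.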

Other observations

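A set of 32 ribosome biogenesis factors was put together after RRS1 and GPATCH4 had been seen among the largest falls, so that it carries no test. Of 29 measured, 26 were called lower and 0 higher in limma, with a median log2 fold change of -0.51, beside -0.03 over all genes and 7.73% of genes called lower. The median level was 9.72 at 2% O2 with sorafenib, 10.4 after withdrawal and 10.1 with the drug at 20% O2. Without RRS1 and GPATCH4, 24 of 27 were lower, with a median of -0.50. UTP20 (-0.79), a component of the small subunit processome, RRP12 (-0.73), BOP1 (-0.71) and NOP2 (-0.69) had the largest differences after them. NPM1, FBL and PES1 were not called. The row of NPM1 was dim, at 6.11 against 6.22, not far above the lower quartile of all values (5.76).

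Rows outside the gene comparison also moved. Of 1752 rows with several gene symbols, 101 were called higher and 29 lower, and of 7864 rows with no symbol, 126 were higher and 62 lower.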
